A study of Mus musculus with 6 samples.

Results

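The Fanconi anaemia pathway and homologous recombination repair DNA that has been crosslinked or broken, and they were followed here through the transcripts of 37 genes. The genes were taken by symbol from a table of 55471 gene IDs, and each of the 37 matched a single ID. They are defined by their known function, and the set was drawn up with earlier results of these data known. All 6 libraries came from sorted haematopoietic stem cells of mice whose genotype is given as ETV6-RUNX1, a leukaemia-associated fusion that can be switched on in these animals. The control group (uninduced, 3 libraries) had no doxycycline, and the other group (induced, 3 libraries) came from mice fed doxycycline for 2 weeks. The sorted cells lacked lineage markers and CD48 and carried Kit, Sca-1 and CD150. Age, sex, strain background and the promoter that drives the fusion are not given in the sources used here, nor whether a library held 1 mouse or several. P-values therefore measure the spread between libraries, which may be technical in part. Mice given doxycycline but lacking the fusion were not analysed here, and effects of the drug and of the fusion cannot be told apart.

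In the Fanconi pathway a multi-subunit core complex recognises a stalled replication fork at an interstrand crosslink and attaches ubiquitin to the FANCI and FANCD2 proteins. The marked pair recruits nucleases that unhook the crosslink, and the resulting break is repaired by homologous recombination, in which resected single-stranded DNA invades an intact copy. Recombination uses the sister chromatid and is therefore tied to the S and G2 phases of the cell cycle. Inherited loss of Fanconi genes causes bone marrow failure, and blood stem cells are among the cells most affected.

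The stem cell label was checked against markers. Of 10 stem cell markers all reached a mean of 1 TPM (a length-corrected share of the transcripts of a library), and their summed level was 481 to 673 TPM in uninduced and 605 to 647 TPM in induced libraries. The 5 lymphoid markers, Il7r, Dntt, Cd79a, Ebf1 and Cd3e, were listed at 0 in all libraries. The 8 erythroid markers summed to 53.8 to 60.3 TPM in uninduced and 395 to 462 TPM in induced libraries, 4 multipotent progenitor markers to 51.3 to 63.0 and 69.0 to 88.5 TPM, 5 megakaryocyte markers to 101 to 135 and 104 to 123 TPM, and 5 myeloid markers to 127 to 173 and 174 to 203 TPM. Of the megakaryocyte markers Pf4 rose (means 28.4 and 60.7 TPM, limma adjusted p 0.0253) and Gp9 fell (16.7 and 2.96 TPM, limma adjusted p 0.0187). Itga2b and Vwf were lower without overlap (limma adjusted p 0.183 and 0.205), and Gp1bb overlapped between the groups. Of the myeloid markers Prtn3 rose, and Lyz2 (means 97.9 and 131 TPM), Mpo (19.6 and 7.84 TPM) and Elane (7.33 and 3.41 TPM) overlapped between the groups. Most of the erythroid sum came from 4 globin genes, which rose, as did Slc4a1, while Klf1 and Car1 overlapped between the groups and Epor was at 2.10 to 4.57 and 0 to 1.45 TPM (limma adjusted p 0.0638). Nuclear protein-coding genes held 26.6% to 32.9% of the TPM in uninduced and 20.5% to 23.2% in induced libraries. On the deposited scale the median log2 change over the 13470 genes tested was -0.35, and its cause was not tested. Results are given on that scale, and also after median-of-ratios scaling (each library divided by its median ratio to the average library), which brought this median to 0.0033. TPM keep no read depth, so no counting error can be given. In bulk libraries, fewer cells that hold a transcript and less of it per cell cannot be told apart.

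Start regions are shown for genes that fell after induction. RefSeq start regions (GRCm38.p6) were matched for 29 of the 37 genes. The 120 bases before the start are printed for the 5 genes that passed the test given with the levels and whose 120 bases held no annotated exon. They are written 5′ to 3′ on the strand of the gene, and capitals mark the CCAAT box, read on either strand (ATTGG is its reverse complement). Brca2 has no such box in these bases.
Brca1 (chr11:101551956-101552075, minus strand): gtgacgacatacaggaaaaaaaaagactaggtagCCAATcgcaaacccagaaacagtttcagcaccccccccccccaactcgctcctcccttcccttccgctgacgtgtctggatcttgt
Brca2 (chr5:150522501-150522620, plus strand): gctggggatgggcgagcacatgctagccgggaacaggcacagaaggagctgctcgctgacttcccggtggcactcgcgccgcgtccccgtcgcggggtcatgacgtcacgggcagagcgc
Brip1 (chr11:86201194-86201313, minus strand): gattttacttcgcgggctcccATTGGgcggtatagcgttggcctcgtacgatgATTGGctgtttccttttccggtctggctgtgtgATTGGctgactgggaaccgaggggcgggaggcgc
Rad51ap1 (chr6:126939588-126939707, minus strand): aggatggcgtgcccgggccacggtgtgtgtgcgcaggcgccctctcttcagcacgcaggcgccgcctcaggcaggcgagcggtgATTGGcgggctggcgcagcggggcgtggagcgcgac
Rad54l (chr4:116123691-116123810, minus strand): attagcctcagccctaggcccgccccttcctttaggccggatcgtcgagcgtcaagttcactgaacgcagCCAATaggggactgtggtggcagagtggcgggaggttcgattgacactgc

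Over the full 250 bases before the start, CCAAT was present on either strand in 18 of the 29 genes, or 62.1%. It was present in 37.3% of 8804 start regions of tested genes and in 34.5% of all 27025. Among the 29, 7 genes had passed the test, and 4 of these held it (57.1%). Of the other 22 genes 14 did (63.6%), and these 22 include Fancb, Rad51b and Rad51c, which were too low to be tested. The E2F-type words TTTCCCGC, TTTGGCGC, TTTCGCGC and TTTGCCGC were searched on both strands and found in 4 of the 29 genes (Bard1, Brca2, Chek2 and Fancg), or 13.8%, against 3.82% of start regions of tested genes. The cell cycle words TTTGAA and TTCGAA were found in 2 of 29, or 6.9%, against 12.3%. Unlike the printed bases, the windows of the 29 genes were not limited to those without annotated exons. Some hold exons of the gene itself, and for Chek1 and Fancl these fill all 250 bases. The TTTCCCGC of Fancg, 52 bases before the RefSeq start, lies inside an annotated Fancg exon. None of these words contains another, and a match is a description of letters only.

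Transcripts of these genes were modest in level and lower after induction. In uninduced cells 9 of the 37 had a mean over 10 TPM, led by the 3 genes of the MRE11 complex, and 2 were under 1 TPM. In induced cells 2 were over 10 TPM and 15 were under 1 TPM. The mean was lower in induced cells for all 37 genes, and for 29 of them every induced library lay under every uninduced library, as it did for 18.7% of all 23013 genes with a value in any library. Summed over the 37 genes, the level was 301, 290 and 253 TPM in uninduced and 112, 110 and 120 TPM in induced libraries. With each library rescaled so that its nuclear protein-coding genes sum to 1000000 (the coding-gene scale), the sums were 1010, 883 and 949 against 509, 534 and 516. The groups were well apart on either scale, and the induced mean was 40.5% of the uninduced mean on the deposited scale and 54.9% on the coding-gene scale. Of the single values 10 of 111 in induced and 1 of 111 in uninduced libraries were listed at 0. Such a 0 can be a failed estimate at low level.

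**Figure D1:**
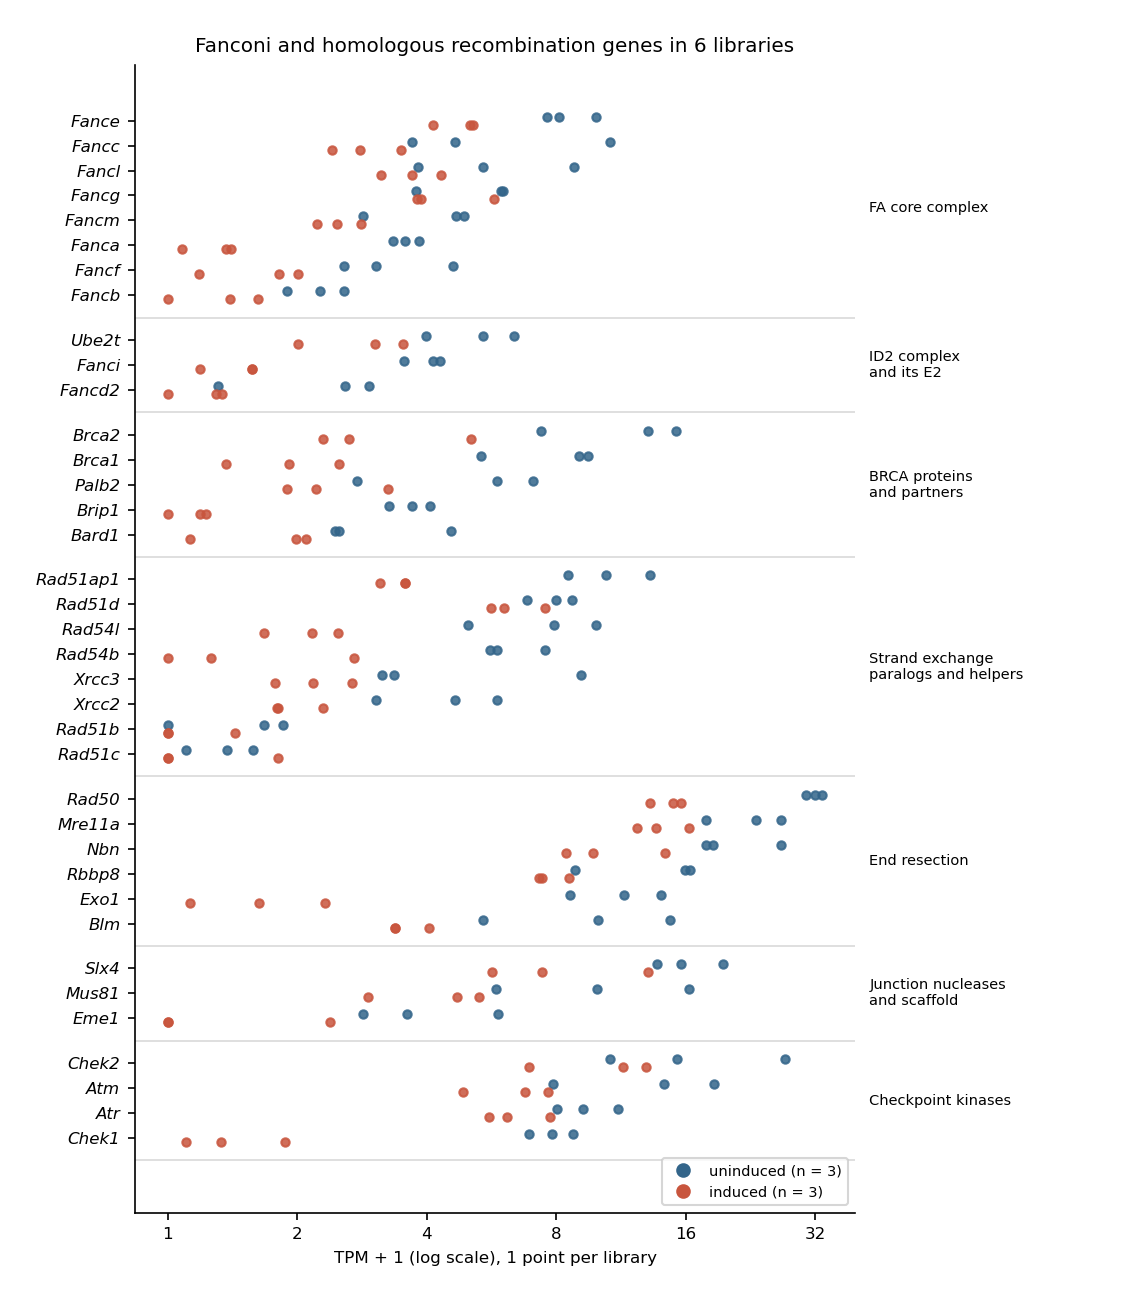
Level of each of the 37 genes as TPM + 1 on a log2-spaced axis, with 1 point per library (blue uninduced, red induced, n = 3 each) and genes grouped by role. Red points lie left of all blue points for 29 genes, and the gap is widest for Exo1 and Chek1, while Fancg and Rad51d overlap.

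Tests were run with limma on log2(TPM + 1), and genes were called at an adjusted p under 0.05 (Benjamini-Hochberg, over all genes tested). The mean minimum of 1 TPM left 33 of the 37 genes. Of these, 10 fell and none rose, or 30.3%, while 10.2% of all tested genes fell and 1.29% rose. At an unadjusted p under 0.05, 22 of the 33 were lower and 0 higher, beside 24.2% and 3.73% of all tested genes. After median-of-ratios scaling 4 of 33 fell, or 12.1%, beside 3.10% of all tested genes, and 0 rose. Groups did not overlap, with induced lower, for 28 of the 33, beside 28.2% of all tested genes, and for 15 of the 33 after median-of-ratios scaling, beside 14.3%. The median log2 change of the 33 was -1.02, against -0.35 for all genes, and -0.74 against 0.0033 after scaling. A log2 change was negative for 33 of 33 genes on the deposited scale (72.5% of all genes) and for 31 of 33 after scaling (49.8%), where Fancg and Rad51d were at 0.09 and 0.06. The 10 genes that fell were Exo1, Chek1, Rad54b, Brca1, Brca2, Rad54l, Brip1, Rad51ap1, Fanci and Rad50, and Exo1, Chek1, Brca1 and Rad51ap1 were those also past the threshold after scaling.

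**Figure D2:**
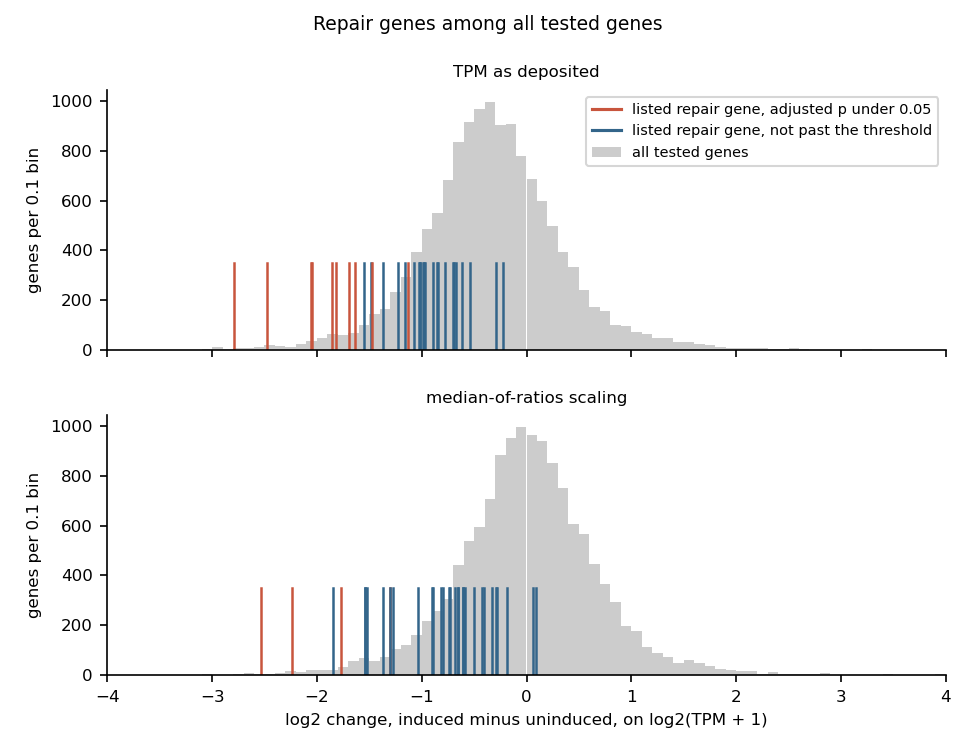
Histogram of the log2 change (induced minus uninduced, on log2(TPM + 1)) of all 13470 tested genes in grey, with each of the 33 tested repair genes as a line (red past an adjusted p of 0.05, blue not), on the deposited scale (top) and after median-of-ratios scaling (bottom). Most lines lie left of the all-gene median, with Fancg and Rad51d right of it on both scales, and 10 are red in the top panel and 4 in the bottom panel.

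The core complex of the Fanconi pathway comprised 8 genes, of which 7 could be tested. None passed (limma, adjusted p of 0.0502 or more), beside 10.2% of all tested genes that fell. Fance, which links the core complex to FANCD2, had the highest level, at 7.12, 6.63 and 8.92 TPM in uninduced and 4.13, 3.15 and 4.03 TPM in induced libraries. Its groups did not overlap, and its log2 change was -0.84 (SE 0.31, limma adjusted p 0.109). Fanca, the subunit most often mutated in the human disease, was at 2.83, 2.33 and 2.56 TPM and at 0.368, 0.0822 and 0.402 TPM. It lay just outside the threshold, at -1.48 on the log2 scale (SE 0.42, limma adjusted p 0.0502), and at -1.30 with an adjusted p of 0.0976 after median-of-ratios scaling. Fancf, an adaptor subunit, was at 1.57 to 3.62 TPM and 0.18 to 1.01 TPM, and Fancm, the DNA translocase that anchors the complex, at 1.85 to 3.89 and 1.23 to 1.81 TPM. Fancc ranged from 2.69 to 9.65 TPM among uninduced libraries and from 1.41 to 2.49 TPM among induced libraries. Fancl, the ubiquitin ligase, and Fancg overlapped between the groups. Fancg had the smallest log2 change of the 33 (-0.22), at 5.02, 2.77 and 4.96 TPM and 4.75, 2.8 and 2.88 TPM. Fancb was below the minimum, at 0.895 to 1.57 TPM and 0 to 0.624 TPM.

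The substrates of the core complex were scarce. Fanci fell from 3.3, 2.55 and 3.13 TPM to 0.573, 0.186 and 0.574 TPM, so that every induced library held under 0.6 TPM. Its log2 change was -1.47 (SE 0.41, limma adjusted p 0.0469), which became -1.27 with an adjusted p of 0.1 after median-of-ratios scaling. Fancd2, its partner, did not reach the minimum, at 1.93, 0.31 and 1.59 TPM and 0, 0.295 and 0.339 TPM, and its groups overlapped through uninduced replicate 2. Ube2t, the ubiquitin-conjugating enzyme that acts with FANCL, was the highest of these 3 genes, at 2.98, 4.4 and 5.38 TPM and 2.52, 1.01 and 2.03 TPM. Its groups did not overlap, but it did not pass (log2 change -0.89, SE 0.40, limma adjusted p 0.179).

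Among the BRCA genes and their partners 3 of 5 fell, beside 10.2% of all tested genes, and 1 of 5, Brca1, after median-of-ratios scaling, beside 3.10% (Brca2 adjusted p 0.0568, Brip1 0.0666, limma). Brca1, which promotes resection and brings PALB2 to breaks, was at 8.05, 8.48 and 4.34 TPM in uninduced and 0.363, 0.916 and 1.5 TPM in induced libraries. All induced libraries lay well under the lowest uninduced library, and the log2 change was -2.04 (SE 0.42, limma adjusted p 0.0148). Brca2, a central mediator of strand exchange, fell from 14.2, 12.1 and 6.39 TPM to 1.63, 1.3 and 4.08 TPM (log2 change -1.86, SE 0.43, limma adjusted p 0.0228). Uninduced replicate 3 was the lowest control for Brca1 and Brca2, and induced replicate 3 the highest treated library for both. Brip1, a helicase that binds BRCA1, fell from 3.07, 2.27 and 2.7 TPM to 0, 0.226 and 0.191 TPM (log2 change -1.69, SE 0.43, limma adjusted p 0.0335). Its induced mean was 5.2% of its uninduced mean, the lowest such share of the 37 genes. Palb2, the bridge between BRCA1 and BRCA2, and Bard1, the obligate partner of BRCA1, did not pass (log2 changes -1.02 and -0.86, limma adjusted p 0.188 and 0.284). Palb2 overlapped between the groups, and Bard1, at 1.45 to 3.56 and 0.13 to 1.09 TPM, did not.

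The strand exchange paralogs (Rad51b, Rad51c, Rad51d, Xrcc2 and Xrcc3), which act as cofactors in recombination, differed among themselves in level. Rad51d was at 7, 7.7 and 5.83 TPM in uninduced and 4.65, 6.53 and 5.07 TPM in induced libraries, and the groups overlapped (log2 change -0.29, SE 0.30, limma adjusted p 0.565). Rad51b and Rad51c, both below the minimum, did not exceed 0.852 TPM in any library. Xrcc2, at 2.04 to 4.83 and 0.792 to 1.3 TPM, and Xrcc3, at 2.14 to 8.16 and 0.773 to 1.69 TPM, did not overlap between groups and did not pass (limma adjusted p 0.107 and 0.191). The 3 genes that encode helpers of strand exchange all fell, and of these Rad51ap1 also did after median-of-ratios scaling (limma adjusted p 0.0361, against 0.0527 for Rad54l and 0.0562 for Rad54b), beside 10.2% and 3.10% of all tested genes. Rad51ap1, which stimulates strand invasion, fell from 9.47, 12.2 and 7.53 TPM to 2.12, 2.57 and 2.55 TPM, with little spread among induced libraries (log2 change -1.63, SE 0.32, limma adjusted p 0.0129). Rad54l, a DNA translocase of strand exchange, fell from 4, 8.91 and 6.91 TPM to 1.17, 0.676 and 1.48 TPM (log2 change -1.81, SE 0.40, limma adjusted p 0.0205). Its relative Rad54b fell from 6.52, 4.62 and 4.84 TPM to 0, 0.259 and 1.71 TPM (log2 change -2.06, SE 0.47, limma adjusted p 0.0227), and induced replicate 3 stood above the other induced libraries.

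Genes of end resection held the largest part of the summed level, 37.3% ± 1.87 (SD, n = 3) in uninduced and 41.0% ± 2.94 in induced libraries. Rad50, the ATPase of the MRE11 complex, was the most abundant of the 37 genes and the most even between replicates. It fell from 32.3, 29.5 and 30.9 TPM to 14.6, 12.2 and 14 TPM (log2 change -1.13, SE 0.21, limma adjusted p 0.00995). After median-of-ratios scaling the change was -0.74 with an adjusted p of 0.0581. The other genes of the complex, Mre11a, its nuclease, and Nbn, its regulatory subunit, were at 21.6 ± 4.43 and 20.0 ± 4.91 TPM in uninduced and 13.1 ± 1.99 and 9.84 ± 3.11 TPM in induced libraries (SD, n = 3 each). Neither passed (limma adjusted p 0.116 and 0.0600), although their groups did not overlap. Exo1, the exonuclease of long-range resection, had the largest change of the 33 genes on log2(TPM + 1). Its induced mean was 6.65% of its uninduced mean, and this share was lower for Brip1 and Chek1 (5.20% and 6.34%). Exo1 fell from 10.5, 13.1 and 7.64 TPM to 1.32, 0.124 and 0.63 TPM (log2 change -2.79, SE 0.41, limma adjusted p 0.00415). The change was -2.53 after median-of-ratios scaling (adjusted p 0.00966). Rbbp8, which encodes CtIP, the activator of MRE11, was at 12.8 ± 4.23 and 6.77 ± 0.716 TPM, and Blm, the helicase mutated in Bloom syndrome, at 9.05 ± 4.67 and 2.60 ± 0.394 TPM (SD, n = 3 each), with limma adjusted p of 0.144 and 0.0572.

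The junction nucleases and their scaffold did not pass, beside 10.2% of all tested genes that fell. Slx4, the scaffold that recruits nucleases to crosslinks, was at 12.8, 18.6 and 14.6 TPM in uninduced and 6.42, 4.69 and 12.1 TPM in induced libraries (log2 change -0.98, SE 0.34, limma adjusted p 0.097). Induced replicate 3 lay close to the uninduced range. Mus81, a nuclease subunit, was at 4.78 to 15.3 and 1.93 to 4.3 TPM, and Eme1, its partner, at 1.84 to 4.85 TPM in uninduced libraries and at 1.39, 0 and 0 TPM in induced libraries (limma adjusted p 0.0981 and 0.0858).

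Of the 4 checkpoint kinases only Chek1 passed, beside 10.2% of all tested genes that fell. It was also the only 1 to pass after median-of-ratios scaling (limma adjusted p 0.0137), beside 3.10%. Chek1, the kinase that restrains replication downstream of ATR, fell from 7.77, 6.84 and 5.92 TPM to 0.87, 0.328 and 0.104 TPM. Every induced library was under 1 TPM and every uninduced library over 5 TPM, and the log2 change was -2.48 (SE 0.39, limma adjusted p 0.00527). Chek2, the kinase downstream of ATM, had the highest level of the 4, at 14.3, 26.3 and 9.65 TPM and 5.92, 10.5 and 11.9 TPM, with overlapping groups (log2 change -0.71, SE 0.39, limma adjusted p 0.268). Atr and Atm, the upstream kinases, had log2 changes of -0.54 and -1.02 (limma adjusted p 0.278 and 0.109). Atr spanned 7.03 to 10.1 TPM in uninduced and 4.57 to 6.76 TPM in induced libraries.

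**Figure D3:**
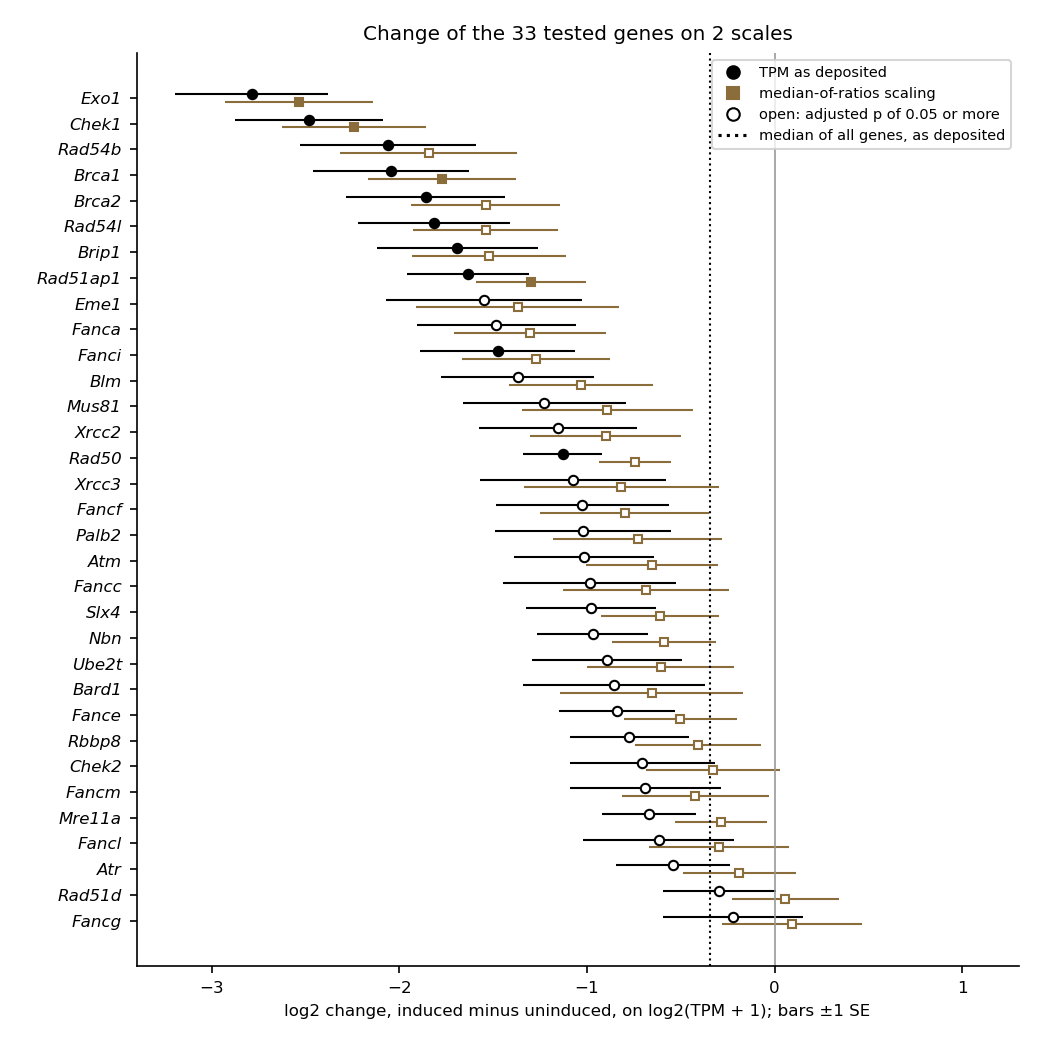
Log2 change (induced minus uninduced, on log2(TPM + 1)) of the 33 tested genes with bars of 1 SE, as deposited (black circles) and after median-of-ratios scaling (brown squares), filled where the limma adjusted p was under 0.05. The changes run from -2.79 for Exo1 to -0.22 for Fancg on the deposited scale, and the dotted line marks the median of all genes, -0.35.

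Ratios between genes of a library do not depend on how the library is scaled, and 8 were computed, chosen after the values were seen. The level of Chek1 relative to Chek2 was 0.544, 0.26 and 0.614 in uninduced and 0.147, 0.0313 and 0.00871 in induced libraries, and relative to Atr it was 0.821 ± 0.134 and 0.0863 ± 0.0912 (SD, n = 3 each). Exo1 relative to Rad50 was 0.338 ± 0.0982 and 0.0485 ± 0.0401, and Rad51ap1 relative to Rad51d was 1.41 ± 0.155 and 0.451 ± 0.0556 (SD, n = 3 each). These 4 ratios did not overlap between the groups. For each, the exact permutation test (two-sided) gave its lowest possible p for groups of 3, 0.1, or 0.2 when adjusted over the 8 ratios. The ratios of Brca1 to Bard1, Brca2 to Palb2, Eme1 to Mus81 and Rad50 to Mre11a overlapped between groups. Because the 4 pairs without overlap set genes that fell against genes that did not pass or fell less, their values are a description and support nothing further.

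As a share of the summed level of the 37 genes, the BRCA genes and partners held 10.9%, 10.03% and 7.42% in uninduced and 2.69%, 5.19% and 6.73% in induced libraries. The core complex held 11.2% ± 1.57 and 12.9% ± 2.56, and the checkpoint kinases 15.7% ± 3.91 and 18.3% ± 3.45 (SD, n = 3 each). The share of the BRCA genes was the only share of the 7 roles that did not overlap between the groups and was lower in induced libraries.

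Other genes of the same pathways, and of neighbouring ones, were taken from lists drawn up with earlier results of these data known. Of 13 other Fanconi genes 3 fell and 0 rose, beside 10.2% of all tested genes that fell, and 1, Usp1, fell after median-of-ratios scaling, beside 3.10%. Usp1, which removes ubiquitin from FANCD2, fell from 19.8, 41.5 and 30.2 TPM to 7.12, 7.12 and 10.6 TPM (log2 change -1.72, SE 0.31, limma adjusted p 0.0083), and the histone-fold pair Cenps and Cenpx, which assist FANCM, had log2 changes of -2.26 and -1.55 (limma adjusted p 0.0453 and 0.0191). Of 35 other recombination genes 32 were tested, and 9 fell and 0 rose, beside the same 10.2%. After that scaling 1 of 32, Mcm8, was past the threshold, a share near the 3.10% of all tested genes. Rad52 overlapped, at 16.6 to 25.9 and 12.1 to 20.7 TPM (limma adjusted p 0.45). The largest changes of that list were in Mcm8, a helicase subunit, Recql4, a RecQ helicase, Tonsl, a fork-protection factor, and Rmi2, a BLM partner, at -2.04, -1.72, -1.69 and -1.69 on the log2 scale (limma adjusted p 0.0202 to 0.0453).

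Of 17 other checkpoint and break signalling genes 6 fell and 0 rose, and 5 fell after median-of-ratios scaling, beside 10.2% and 3.10% of all tested genes. Clspn, which presents CHEK1 to ATR, fell from 14.8, 17.6 and 14.5 TPM to 1.09, 2.14 and 1.41 TPM (log2 change -2.73, SE 0.32, limma adjusted p 0.00159). Timeless and Tipin, which form the fork protection complex, had log2 changes of -2.14 and -1.77, and Topbp1, the activator of ATR, of -1.51 (limma adjusted p 0.00405, 0.00549 and 0.007). All 4 passed after median-of-ratios scaling. Of the rest of the list, Atrip, the partner of ATR, and Etaa1, another activator of ATR, did not pass (log2 changes -0.65 and -0.64, limma adjusted p 0.257 and 0.195). The clamp and loader genes Rad17, Rad9a, Rad1 and Hus1 overlapped between the groups.

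End joining, the other main route of break repair, is not tied to the sister chromatid. Of 10 end joining genes 7 were tested and none passed in either direction, beside 10.2% of all tested genes that fell and 1.29% that rose. Their median log2 change was -0.35, beside -0.35 for all genes, and 0.03 after scaling. Their sum on the coding-gene scale was 290 ± 3.22 in uninduced and 312 ± 49.4 in induced libraries (SD, n = 3 each). Xrcc6, the Ku70 gene, was at 30.9, 40.7 and 36.3 TPM and 32.3, 14.2 and 28.1 TPM, with overlapping groups, and Xrcc5, the Ku80 gene, overlapped too (log2 change -0.78, limma adjusted p 0.143). Dclre1c, the Artemis nuclease, was the only tested gene of the list whose groups did not overlap, with 1.00 to 2.03 TPM in uninduced and 2.66 to 3.46 TPM in induced libraries (log2 change 0.76, limma adjusted p 0.241). Among all tested genes, 4.83% had groups that did not overlap with induced higher. The difference between this list and the repair genes was not tested.

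**Figure D4:**
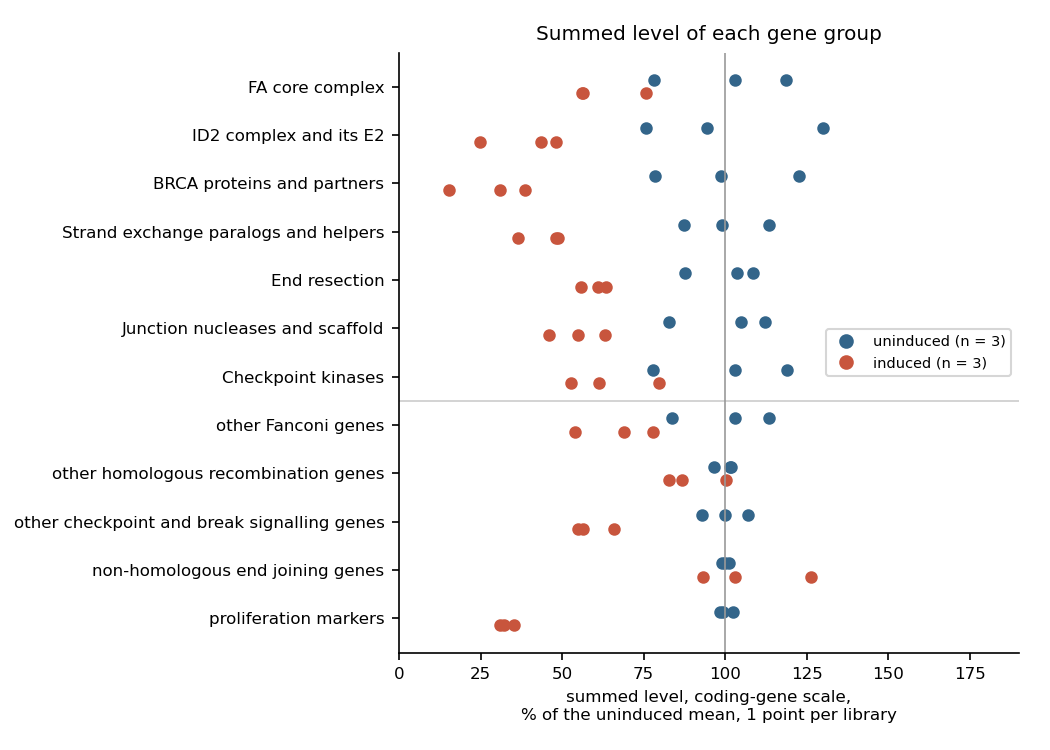
Summed level of each role group of the 37 genes (above the line) and of other lists (below it), on the coding-gene scale (each library's nuclear protein-coding genes set to the same total), as a percentage of the uninduced mean, with 1 point per library (n = 3 per group). Induced points lie under all uninduced points for each role except the checkpoint kinases, while those of end joining genes spread around 100% and those of proliferation markers lie near 33%.

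Proliferation markers moved in the same libraries. Of 17 such genes 16 fell and 0 rose (14 and 0 after median-of-ratios scaling), beside 10.2% and 3.10% of all tested genes that fell, and their sum on the coding-gene scale in induced cells was 32.8% of that in uninduced cells. Mki67, found in cycling cells, fell from 48, 53.2 and 48.6 TPM to 6.11, 7.23 and 7.79 TPM, and Top2a, a topoisomerase of S to M phase, from 69.2, 65 and 57 TPM to 10.1, 5.42 and 10.5 TPM (log2 changes -2.67 and -2.78, limma adjusted p 0.000255 and 0.000572). Pcna, the replication clamp, fell from 128, 113 and 91.7 TPM to 32.9, 37.1 and 52.4 TPM (log2 change -1.43, limma adjusted p 0.00464). The part of these markers, and of the erythroid markers given above, in the change of the repair genes was not tested.

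With 1 library left out, fewer genes were called over all (3.67% to 7.94% fell, against 10.2%), and fewer of the 10 passed. Among these 10 genes, the log2 change over the 6 fits moved most for Rad54b, from -2.48 to -1.76. Brca2 ranged from -2.21 to -1.64, Brca1 from -2.31 to -1.82, Brip1 from -1.77 to -1.60 and Fanci from -1.56 to -1.34. The 10 genes that fell became 4 without uninduced replicate 1, 4 without uninduced replicate 2, 3 without induced replicate 1 and 4 without induced replicate 2, 8 without induced replicate 3 and 8 without uninduced replicate 3, the last including Atm and Blm in place of 4 of the 10. Exo1, Chek1 and Rad50 passed in all 6 of these fits. Brca1 and Brca2 passed only without uninduced replicate 3 or induced replicate 3, and Rad51ap1 only without either of those or induced replicate 2. Brip1 passed only without uninduced replicate 2, Rad54l only without uninduced replicate 1 or induced replicate 3, Rad54b only without induced replicate 3, and Fanci in none. Genes that were lost had limma adjusted p of 0.0502 to 0.133.

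Some values are uncertain because exons overlap. In GENCODE vM21 on GRCm38, the build the submitters name, 18 of the 37 genes share exonic bases with another gene, and 10 share at least 5% of theirs. Rad54b (chr4:11558922-11615805, plus strand) shares 2068 bases, or 35.8%, with Fsbp on the same strand, which was at 0.446 ± 0.334 and 0.119 ± 0.133 TPM (SD, n = 3 each). Fanci (chr7:79391929-79450264, plus strand) shares 921 bases with Polg and Rad54l (chr4:116094264-116123690, minus strand) 1184 bases with Lrrc41, on the opposite strand in both cases. The library kit keeps strand, but whether the abundances used it is not given in the sources used here. Polg was at 11.9 ± 6.25 and 6.13 ± 2.92 TPM and Lrrc41 at 12.5 ± 3.14 and 8.95 ± 1.23 TPM (SD, n = 3 each). Of the remaining genes past the threshold, Brca2 shared 0.301% with an antisense gene, and Exo1 (chr1:175880581-175913489, plus strand), Chek1 (chr9:36708482-36727065, minus strand), Brca1, Brip1, Rad51ap1 and Rad50 shared none.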

How the data were processed

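Gene abundances in TPM were deposited by the authors for 6 libraries of sorted stem cells. The submitters' processing notes name bcl2fastq, HISAT2, StringTie, DESeq2 and GRCm38, with no version or role for any of them. The deposited table also holds a GC percent column, which entered no test. Its 60496 rows hold 55471 gene IDs, and the 5025 rows that repeat an ID were summed. Library totals were 999976 to 999993 TPM, so read depth is unknown. No sample column was left unmapped (0).

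Values were tested as log2(TPM + 1), where the mean over libraries reached 1 TPM, with limma 3.58.1 in R 4.3.3 (empirical Bayes with a variance trend, 3 against 3 libraries, Benjamini-Hochberg adjustment over 13470 genes, threshold 0.05). A log2 change on this scale understates the change of low genes. The script was tested on simulated data with known changes placed only in genes above about 5 TPM. Recovery of changes in lower genes was therefore not tested. Ratios were compared by exact permutation tests. The genes and lists were chosen with earlier results of these data known. Genes past the threshold, and the most abundant gene of each role, were given in full; from the other repair lists, up to 4 genes past the threshold with the largest change, plus Rad52 and Usp1, and from proliferation markers Mki67, Top2a and Pcna. From these lists 2 genes were left out and are not analysed here; other listed genes enter as counts or sums. The end joining genes, Atrip, Etaa1 and the clamp and loader genes were named outside this rule, after their values were seen. Alternatives were other pseudocounts, filters, scalings and variance models, the replicate number as a block, and fits without each library in turn.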

Additional observations from a re-analysis of the deposited data

How the results depend on the processing

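Of the 33 tested genes 10 fell, and this count was 6 with no filter on low values, 5 with a minimum mean of 5 TPM (15 members left), 4 after median-of-ratios scaling and 4 after quantile normalization. Of all genes 10.2% fell, and 2.85%, 16.3%, 3.10% and 3.27% under those settings. With no filter 5 of the 10 were kept and Fanca passed (adjusted p 0.0465). The count was 9 with a pseudocount of 0.1, 10 with a pseudocount of 5, 7 after rescaling to coding genes, 11 with no variance trend and 12 with array weights (beside 9.73%, 9.73%, 4.27%, 4.89% and 10.5% of all genes), and 3 to 8 with 1 library left out (beside 3.67% to 7.94%). None rose in any of these settings. The median log2 change of -1.02 was -1.44 with a pseudocount of 0.1, -0.55 with a pseudocount of 5, -0.74 after median-of-ratios scaling and -0.75 after quantile normalization, and -1.16 to -1.02 with 1 library left out. The groups of 28 genes did not overlap with induced lower, which became 13 with a minimum of 5 TPM, 15 after median-of-ratios scaling, 15 after quantile normalization and 14 after rescaling to nuclear protein-coding genes, and 28 to 32 with 1 library left out. Of all genes 28.2% did so, and 33.7%, 14.3%, 14.3% and 14.7% under those 4 settings, and 31.9% to 39.4% with 1 library left out. Fancg turned to 0.092, 0.089 and 0.14, and Rad51d to 0.058, 0.054 and 0.091, under median-of-ratios, quantile and coding-gene scaling. The cause was not tested, other than that fewer genes were left by the higher minimum. Exo1 and Chek1 passed in every setting in which they were tested, and Rad50 in all 6 with a library left out but not under those 3 scalings.

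With the replicate number as a block 7 of the 10 passed, without Brca2, Brip1 and Fanci, and 902 genes in all against 1549 (5.81% of all genes fell). The labels do not say that a number marks a shared source, and deviations of same-numbered libraries correlated at 0.02, -0.02 and 0.02, so the numbers were not used as pairs. Unknown depth limits the members under 1 TPM most.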
